A study of Mus musculus with 9 samples.

Results

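Liver RNA sequencing was examined for 10 genes of the urea cycle and ammonia handling, out of 25781 genes listed in the data. They were taken by symbol: the cycle's enzymes Nags, Cps1, Otc, Ass1, Asl and Arg1, the liver glutaminase Gls2, and the carriers Slc25a15, Slc25a13 and Slc7a2. All 10 were found and all passed the filter on low values. The 9 libraries came from livers of Swiss mice aged 10 to 12 weeks, in 3 groups of 3: untreated control mice, mice treated with β-CYP at 40 mg/kg, and mice treated with β-CYP at 40 mg/kg plus sodium selenite (Na2SeO3) at 50 µg/kg. The design text calls the β-CYP mice a liver injury group and the mice given both agents a repair group, and what β-CYP stands for is not spelled out. There was no group with selenite alone, so an effect of selenite itself and an effect on the response to β-CYP cannot be told apart. Nothing in the labels ties a library to an animal of its own. The p-values per gene set the difference of group means against the spread of libraries within groups. Part or all of that spread may therefore be technical.

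The urea cycle turns ammonia, which is toxic to the brain, into urea, and the liver is the organ that runs the whole cycle. Its first steps take place in mitochondria, where Nags makes N-acetylglutamate, the obligate activator of Cps1, Cps1 joins ammonia and bicarbonate into carbamoyl phosphate, and Otc passes the carbamoyl group to ornithine to give citrulline. In the cytosol Ass1 joins citrulline with aspartate, Asl splits the product into arginine and fumarate, and Arg1 cuts arginine into urea and ornithine. Periportal hepatocytes, those nearest the incoming blood, carry most of the cycle together with Gls2, which releases ammonia from glutamine. A thin layer of pericentral hepatocytes holds glutamine synthetase (Glul), which captures the ammonia that escaped.

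The sequences in front of these genes are shown first. Whether they have a part in the differences given below was not tested. The RefSeq promoter table (GRCm38.p6) matched 5 of the 10 members with 6 windows: Ass1, Nags, Otc and Slc25a13 with 1 each and Slc25a15 with 2. Cps1, Asl, Arg1, Gls2 and Slc7a2 had no entry. The 250 bases before the start are printed 5′ to 3′ on the gene's strand for Ass1 (chr2:31470020-31470269, plus strand), a cytosolic enzyme with one of the deepest falls, for Nags (chr11:102145263-102145512, plus strand), the member that stayed above control, for Otc (chrX:10252055-10252304, plus strand), and for Slc25a13 (chr6:6217174-6217423, minus strand), the carrier with the smallest fall. Capitals mark letters of a motif searched for.
Ass1: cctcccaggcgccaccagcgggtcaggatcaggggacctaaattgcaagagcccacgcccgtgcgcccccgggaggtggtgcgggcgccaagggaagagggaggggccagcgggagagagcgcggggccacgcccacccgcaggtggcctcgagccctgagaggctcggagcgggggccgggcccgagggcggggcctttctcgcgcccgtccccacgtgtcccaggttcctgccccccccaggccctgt
Nags: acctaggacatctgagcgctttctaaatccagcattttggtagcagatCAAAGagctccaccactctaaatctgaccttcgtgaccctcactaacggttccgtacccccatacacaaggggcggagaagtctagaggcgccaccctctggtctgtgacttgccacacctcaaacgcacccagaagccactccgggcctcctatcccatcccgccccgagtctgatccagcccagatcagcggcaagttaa
Otc: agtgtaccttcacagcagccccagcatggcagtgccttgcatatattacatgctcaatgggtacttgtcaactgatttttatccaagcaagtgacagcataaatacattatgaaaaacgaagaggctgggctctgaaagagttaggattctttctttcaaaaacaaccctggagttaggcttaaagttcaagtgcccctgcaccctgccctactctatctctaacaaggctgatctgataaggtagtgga
Slc25a13: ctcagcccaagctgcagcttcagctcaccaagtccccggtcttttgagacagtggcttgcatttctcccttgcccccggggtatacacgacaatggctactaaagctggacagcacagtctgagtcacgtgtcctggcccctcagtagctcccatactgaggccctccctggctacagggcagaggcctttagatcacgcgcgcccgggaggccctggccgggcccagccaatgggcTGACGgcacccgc

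These windows differed in base composition. G and C made up 75.6% of the Ass1 window, which held 23 CG dinucleotides, and 43.6% of the Otc window, which held 1. The Nags window was at 55.6% with 11 CG dinucleotides, and the medians of all 32851 windows in the table were 52.4% and 6. On either strand, the CRE half-site TGACG, bound by cAMP-responsive factors, was found in the Slc25a13 window, 13 to 9 bases before the start, and 17.8% of all windows hold it. The HNF4 half-site CAAAG was found in the Nags window, 202 to 198 bases before the start, and 48.6% of all windows hold it. The full CRE TGACGTCA (in 1.55% of all windows and containing the half-site), the C/EBP letters TTGCNNAA (9.56%), the glucocorticoid half-site AGAACA (16.1%) and the TATA box letters TATAAA (12.4%) were in none of the 6 member windows. These are matches of letters within 250 bases and do not show binding.

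The livers carried the RNA of hepatocytes in every library. All 12 hepatocyte markers were detected, and together they took 12.2% to 13.5% of reads in control, 16.0% to 16.4% with β-CYP and 15.8% to 15.9% with selenite plus β-CYP. Library totals ran from 28630269 to 36029560 reads. Control replicate 2 stood apart: the ribosomal RNA-like transcript AY036118 held 5.04% of its reads, against 0.0807% to 0.220% in the other 8 libraries. Exocrine pancreas markers summed to 977 to 1079 reads in control and 1160 to 1263 with β-CYP, with 11 and 8 of the 16 markers at 0, including the trypsinogen Prss1. They summed to 40169 to 41553 reads with selenite plus β-CYP, 0.122% to 0.126% of reads, with none at 0. The part of these reads in the results below was not tested. The share of reads held by the 10 urea cycle genes differed by -0.215 percentage points between selenite plus β-CYP and β-CYP. Taking the pancreas markers out of the total left that value as it was. With at most 0.126% of reads in these markers the share could hardly move, so this does not show their part.

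Values below are scaled counts, that is reads divided by the library's factor in the deposited table, and differences are log2 differences of scaled count + 1 with their standard error. To compare genes with each other, scaled counts were divided by exon length in kilobases, taken from a later annotation (GENCODE M21) than the build named for the data. On that scale the cytosolic enzymes Ass1 and Arg1 led in control liver, with Ass1 at 49724 ± 957 scaled counts per kilobase (SD, n = 3) and Arg1 at 28897 ± 186, ahead of Cps1 at 19493 ± 163. A middle group followed with Otc at 4079 ± 37.2, Gls2 at 4041 ± 93.6 and Asl at 3876 ± 174 per kilobase. The libraries of Otc and Gls2 overlapped, as did those of Gls2 and Asl. Then came Slc25a15 at 3263, Slc25a13 at 2101, Slc7a2 at 1680 and Nags at 907 per kilobase, each apart from the next. With selenite plus β-CYP the lead of Ass1 had narrowed, at 25109 ± 460 per kilobase against 20529 ± 367 for Arg1 and 16004 ± 61.7 for Cps1, and the order of these 3 was kept. In that group Slc25a13, Slc25a15 and Gls2 lay at 1753, 1696 and 1682 per kilobase with overlapping libraries, and Nags at 1054 overlapped with Slc7a2 at 1017.

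**Figure D1:**
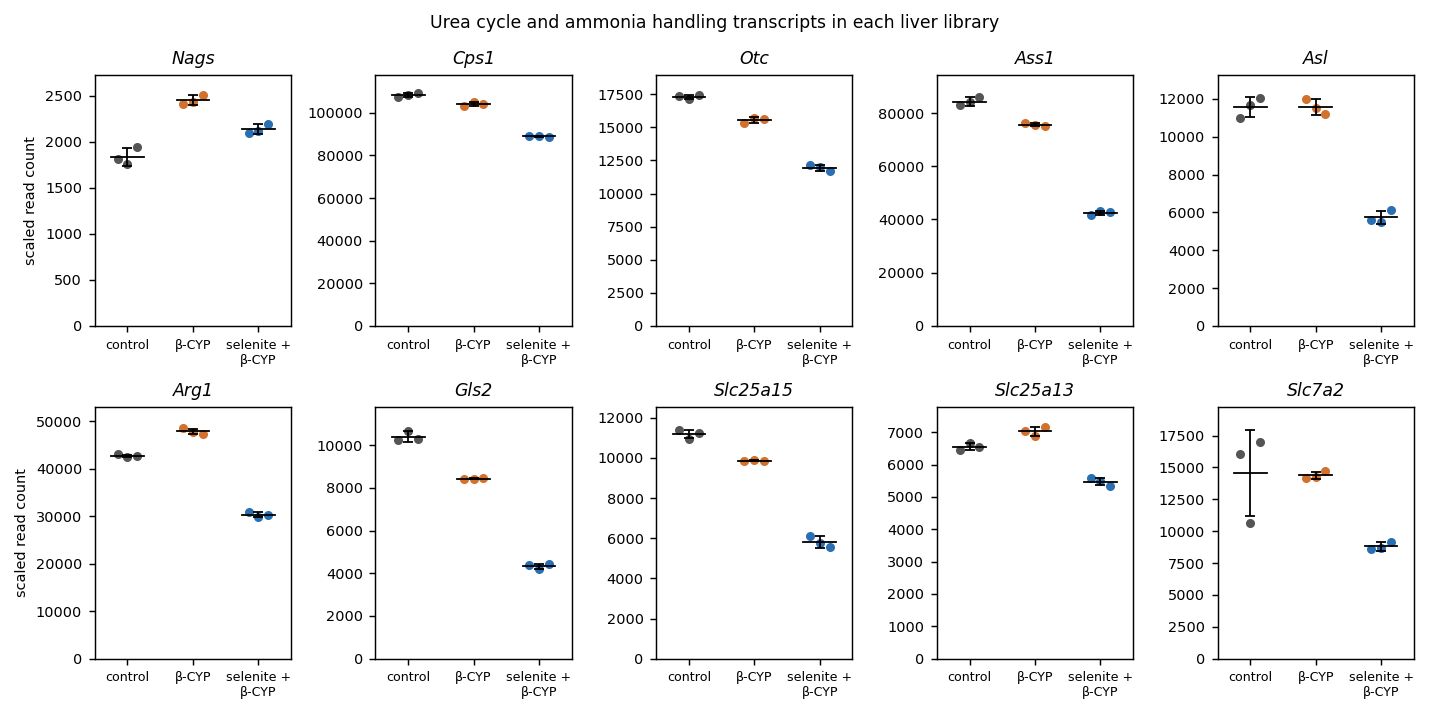
Scaled read count of each of the 10 genes (vertical axes, each starting at 0 and with its own range) in the 3 libraries of each group (dots), with the mean (horizontal line) and SD (error bars). The selenite plus β-CYP dots lie below the β-CYP dots in every panel, and in the Nags panel they lie above control.

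With β-CYP alone the urea cycle genes changed little and in both directions. Of the 10 genes, 3 rose (Nags, Arg1, Slc25a13), 5 fell (Cps1, Otc, Ass1, Gls2, Slc25a15), and Asl and Slc7a2 did not pass the test. Among all 20145 genes tested, 16.3% passed in either direction at a Benjamini-Hochberg adjusted p under 0.05 with limma, 7.72% higher and 8.58% lower. The groups were apart, with no overlap between libraries, for 8 of the 10 genes, and for 31.6% of all genes. The differences of the 10 ran from -0.30 to 0.41 with a median of -0.03, and the median of all genes was -0.001. The number of calls changed with the setting: 2 of the 10 passed with libraries scaled to equal totals, 5 with quantile normalization and 2 without an intensity trend in the spread. Without control replicate 2, 7 passed.

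When selenite was given with β-CYP, all 10 genes fell against β-CYP alone. Among all genes 23.9% passed, 11.6% higher and 12.3% lower. The libraries of the groups did not overlap for any of the 10, and did not overlap for 37.8% of all genes. Differences ran from -0.20 for Nags to -1.01 for Asl, with a median of -0.68 beside 0.017 for all genes. Each of the 10 was lower under every scaling tried, but the size depended on it. With equal totals the median of all genes moved up to 0.139 and that of the 10 was -0.56, 8 of 10 fell, and the calls over all genes went from 2337 higher and 2468 lower to 3238 higher and 1335 lower. With quantile normalization the median of the 10 was -0.37 and again 8 fell. Cps1 and Nags were the members whose fall did not pass under these settings. Leaving out any 1 library left all 10 lower and past the threshold.

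Against control, the selenite plus β-CYP livers had 9 of the 10 genes lower and Nags higher. Among all genes 28.9% passed, 14.4% higher and 14.5% lower, and groups were apart for 41.8% against 10 of 10 here. The median difference of the 10 was -0.62, beside 0.027 for all genes. With equal totals the median of all genes was 0.156, that of the 10 was -0.48, 1 of the 10 rose and 8 fell, and the split over all genes was 3979 higher and 1764 lower in place of 2908 and 2915. With quantile normalization the median of the 10 was -0.34, 1 rose and 7 fell. The 3 comparisons share their groups in pairs, so their values are not independent of each other. In bulk liver RNA, fewer cells of a type and less RNA per cell cannot be told apart.

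**Figure D2:**
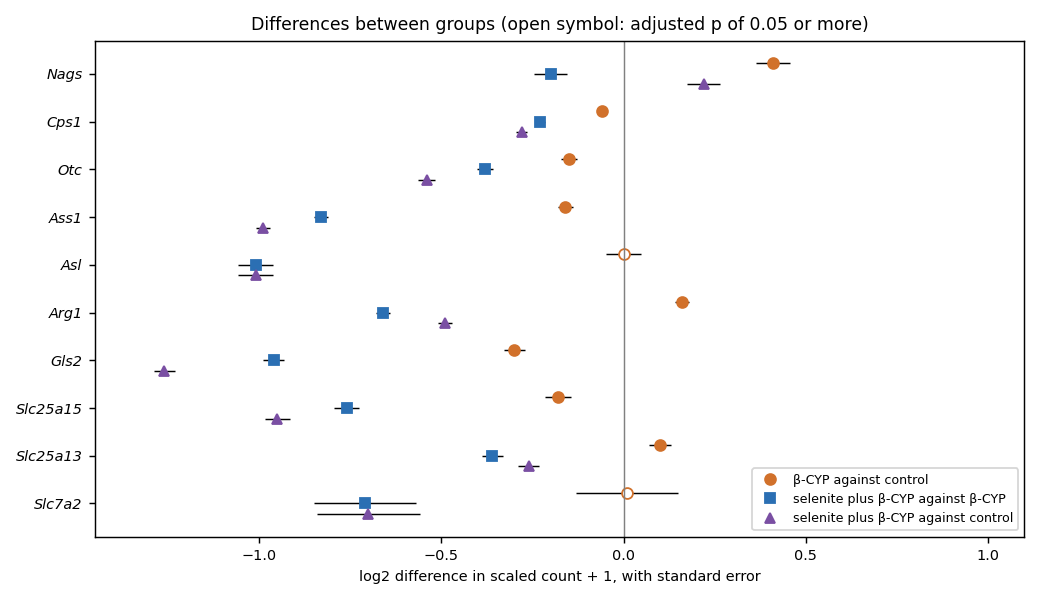
Log2 difference with its standard error (horizontal axis) for each gene (vertical axis) in the 3 comparisons: β-CYP against control (circles), selenite plus β-CYP against β-CYP (squares) and selenite plus β-CYP against control (triangles). Filled symbols passed the test. The squares all lie left of 0, between -1.01 and -0.20, and the circles lie between -0.30 and 0.41.

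Nags makes the activator that Cps1 needs to work. Its scaled counts were 1818, 1755 and 1948 in the control libraries, 2408, 2431 and 2514 with β-CYP, and 2097, 2113 and 2199 with selenite plus β-CYP. The β-CYP libraries were all above the others and the control libraries all below, so the 3 groups did not overlap. Nags rose by 0.41 ± 0.046 with β-CYP (limma adjusted p = 1.9e-04), a mean 33.2% above control. It fell by 0.20 ± 0.046 from β-CYP to selenite plus β-CYP (adjusted p = 0.0113), and it remained 0.22 ± 0.046 above control there (adjusted p = 0.00587). The fall from β-CYP did not pass with equal totals, at -0.07 (adjusted p = 0.547), with quantile normalization, at -0.14, or without the intensity trend (adjusted p = 0.0633). Both differences from control passed under every alternative run. An antisense gene, Gm11586, overlaps an exon of Nags and had 28.6 to 64.2 scaled counts, and since the strand setting of the counting is not given, its reads and those of Nags cannot be told apart in the overlap.

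Cps1, the rate-limiting entry to the cycle, varied little between the libraries of a group, with coefficients of variation of 0.386% to 0.887%. The control libraries held 107303, 108447 and 109093 scaled counts, the β-CYP libraries 103104, 104944 and 104153, and the selenite plus β-CYP libraries 88889, 89255 and 88569. The groups did not overlap, with control on top. The fall with β-CYP was 3.89% (-0.06 ± 0.014, limma adjusted p = 0.0225) and was lost under 7 of the 21 alternatives, among them equal totals and leaving out control replicate 2, control replicate 3, β-CYP replicate 1 or β-CYP replicate 3. The fall from β-CYP to selenite plus β-CYP was 14.6% (-0.23 ± 0.014, adjusted p = 2.2e-06). With equal totals that difference was -0.10 (adjusted p = 0.184), and with quantile normalization -0.04 (adjusted p = 0.262). Against control, selenite plus β-CYP livers were 17.9% lower in Cps1 (-0.28 ± 0.014, adjusted p = 3.5e-07).

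Otc, which forms citrulline, fell in both steps. Its scaled counts were 17354, 17122 and 17422 in control, 15314, 15716 and 15650 with β-CYP, and 12159, 11972 and 11664 with selenite plus β-CYP. No library of a group reached into the next. The differences were -0.15 ± 0.023 with β-CYP (limma adjusted p = 0.00138, not passing with equal totals or without the intensity trend), and -0.38 ± 0.023 with selenite plus β-CYP against β-CYP (adjusted p = 1.6e-06). The mean of the selenite plus β-CYP group was 31.0% below control.

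Among the cytosolic enzymes, Ass1 had the highest level per kilobase. It stood at 82881, 84027 and 86085 scaled counts in control, 76205, 75537 and 75119 with β-CYP, and 41701, 43174 and 42880 with selenite plus β-CYP. The control and β-CYP libraries were apart by a narrow gap and the selenite plus β-CYP libraries lay far below both. Ass1 fell by 0.16 ± 0.020 with β-CYP (limma adjusted p = 4.9e-04, not passing with equal totals, quantile normalization or without the intensity trend). It fell by 0.83 ± 0.020 from there to selenite plus β-CYP (adjusted p = 3.2e-09), 43.7% of the β-CYP mean, and the mean was 49.5% below control.

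Asl, which releases arginine and fumarate, passed the test where selenite was given and not with β-CYP alone. Control libraries had 11001, 11669 and 12020 scaled counts, β-CYP libraries 12015, 11509 and 11207, and selenite plus β-CYP libraries 5614, 5473 and 6114. The control and β-CYP libraries overlapped, with a difference of 0.00 ± 0.049 (limma adjusted p = 0.995). Against β-CYP, selenite plus β-CYP livers were 50.5% lower (-1.01 ± 0.049, adjusted p = 3.3e-07), the largest fall of the 10 in that comparison.

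Arg1, which yields urea itself, moved up and then down. It had 42964, 42415 and 42665 scaled counts in control, 48485, 47688 and 47362 with β-CYP, and 30904, 29830 and 30232 with selenite plus β-CYP. All β-CYP libraries lay above control and all selenite plus β-CYP libraries below it. The rise was 0.16 ± 0.019 (12.1%, limma adjusted p = 2.5e-04, not passing with equal totals or without the intensity trend), and the fall from β-CYP to selenite plus β-CYP was 0.66 ± 0.019 (36.6%, adjusted p = 9.0e-09). Selenite plus β-CYP livers were 29.0% below control.

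Gls2 supplies ammonia to the cycle from glutamine, and it had the largest difference from control of the 10 genes in selenite plus β-CYP livers. Its scaled counts were 10252, 10675 and 10263 in control, 8399, 8416 and 8448 with β-CYP, and 4377, 4195 and 4411 with selenite plus β-CYP. The 3 groups were apart in that order. Gls2 fell by 0.30 ± 0.029 with β-CYP (limma adjusted p = 6.5e-05) and fell by a further 0.96 ± 0.029 with selenite plus β-CYP (adjusted p = 1.1e-08), to a mean 58.4% below control (-1.26 ± 0.029, adjusted p = 1.2e-09). The gene Spryd4 on the opposite strand, at 739 to 1135 scaled counts, overlaps an exon of Gls2, and reads in the overlap cannot be told apart.

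Slc25a15, the mitochondrial ornithine carrier, returns ornithine to Otc. Control libraries had 11373, 10955 and 11245 scaled counts, β-CYP libraries 9838, 9879 and 9835, and selenite plus β-CYP libraries 6124, 5745 and 5578, with no overlap. It fell by 0.18 ± 0.035 with β-CYP (limma adjusted p = 0.00530, not passing with equal totals or without the intensity trend), and fell by 0.76 ± 0.035 from there (adjusted p = 2.3e-07), to 48.0% below control.

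Slc25a13, called citrin, exports aspartate from mitochondria for Ass1. Its scaled counts were 6454, 6676 and 6544 in control, 7045, 6883 and 7161 with β-CYP, and 5576, 5501 and 5342 with selenite plus β-CYP. β-CYP libraries were the highest and selenite plus β-CYP libraries the lowest. The rise with β-CYP was 0.10 ± 0.029 (limma adjusted p = 0.0428) and did not pass under 13 of the 21 alternatives, among them leaving out any library of those groups. The fall from β-CYP to selenite plus β-CYP was 0.36 ± 0.029 (adjusted p = 1.2e-05) and passed under all of them. Against control the fall was 0.26 ± 0.029 (adjusted p = 9.6e-05), which did not pass with equal totals (-0.12) or quantile normalization (-0.09).

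Slc7a2 brings arginine and other cationic amino acids into the cell. It had 16031, 10666 and 16956 scaled counts in control, 14179, 14240 and 14714 with β-CYP, and 8564, 8681 and 9187 with selenite plus β-CYP. Control replicate 2, the library rich in AY036118, was far below the other control libraries, and the coefficient of variation in control was 23.3% against 2.04% with β-CYP. The difference between β-CYP and control was 0.01 ± 0.14 with that library (limma adjusted p = 0.981) and -0.20 without it (adjusted p = 0.0132). The fall from β-CYP to selenite plus β-CYP was 0.71 ± 0.14 (adjusted p = 0.00508) and passed under every alternative. That standard error rests on a spread shared by all 9 libraries, control replicate 2 among them. Without control replicate 2 the limma adjusted p of this fall was 3.9e-06, and with the libraries of the comparison alone it was 1.2e-04. Against control it was 0.70 ± 0.14 (adjusted p = 0.00452), -0.90 without control replicate 2, and -0.40 with quantile normalization, where it did not pass (adjusted p = 0.0629).

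Taken as one sum, the 10 genes held 0.959%, 0.844% and 0.960% of reads in control, 0.891%, 0.890% and 0.889% with β-CYP, and 0.678%, 0.675% and 0.671% with selenite plus β-CYP. Wilson 95% intervals, which cover counting error alone, reached at most 0.0036 percentage points to each side. The low control value was replicate 2, and it stayed the lowest control value, at 0.970% beside 1.04% and 1.05%, when mitochondrial transcripts and AY036118 were left out of the total. The mean share was 0.921% ± 0.0666 in control, 0.890% ± 8.0e-04 with β-CYP and 0.675% ± 0.00371 with selenite plus β-CYP (SD, n = 3). The sum was 24.2% lower in selenite plus β-CYP than in β-CYP and 26.8% lower than in control. With 3 libraries against 3, the two-sided exact permutation test cannot go below p = 0.10, and it gave 0.10 for both of these. For β-CYP against control the difference in share was -0.0312 percentage points with an exact p of 0.40, and control replicate 2 lay below the β-CYP libraries. Without mitochondrial transcripts and AY036118 in the total, the β-CYP libraries held 0.947%, 0.947% and 0.946%, all below the control libraries, the difference was -0.0744 percentage points and the exact p was 0.10. Without control replicate 2 the difference in the share of all reads was -0.0696 percentage points, without control replicate 1 it was -0.0123 and without control replicate 3 it was -0.0116.

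**Figure D3:**
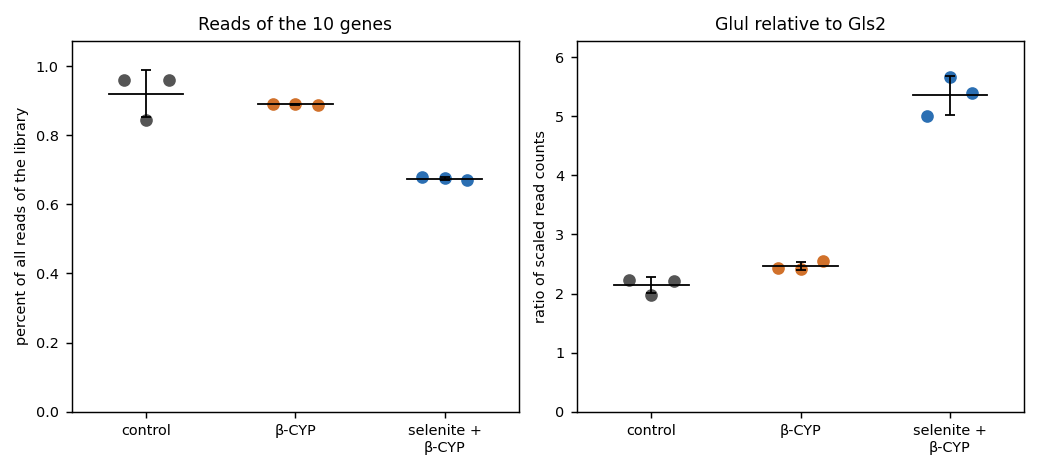
Left, percent of each library's reads held by the 10 genes; right, scaled count of Glul divided by that of Gls2; dots are libraries, lines are group means and bars are SD, and both vertical axes start at 0. The shares lie between 0.671% and 0.678% with selenite plus β-CYP, and the ratios there lie between 5.01 and 5.66, above all other libraries.

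Glutamine metabolism around the cycle did not move as a block. Glul, the pericentral enzyme that fixes ammonia as glutamine, had 22857, 21177 and 22664 scaled counts in control, 20516, 20257 and 21539 with β-CYP, and 21921, 23735 and 23816 with selenite plus β-CYP. It did not pass in β-CYP against control (-0.10 ± 0.042) or selenite plus β-CYP against control (0.06 ± 0.042), where the libraries overlapped, although with quantile normalization the latter was 0.41 (limma adjusted p = 3.7e-04). It rose by 0.16 ± 0.042 from β-CYP to selenite plus β-CYP (limma adjusted p = 0.0227), a call lost under 7 alternatives, among them equal medians and leaving out β-CYP replicate 1 or 2 or selenite plus β-CYP replicate 2 or 3. The ratio of Glul to Gls2 counts was 2.23, 1.98 and 2.21 in control, 2.44, 2.41 and 2.55 with β-CYP, and 5.01, 5.66 and 5.40 with selenite plus β-CYP. Glud1, the mitochondrial enzyme that frees ammonia from glutamate, rose by 0.12 ± 0.019 with β-CYP (not passing with equal totals or without the intensity trend) and fell by 0.52 ± 0.019 from there to selenite plus β-CYP (adjusted p = 4.7e-08).

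The wider list of ammonia, glutamine and glutamate genes had 20 tested members, of which 3 rose and 6 fell with β-CYP (median -0.12), where 7.72% of all genes rose and 8.58% fell. Selenite plus β-CYP against β-CYP gave 3 higher and 9 lower with a median of -0.10, where 11.6% of all genes rose and 12.3% fell. Got1, the cytosolic aspartate aminotransferase, fell by 0.60 ± 0.13 with β-CYP (limma adjusted p = 0.0124, not passing without control replicate 2, without control replicate 3, without the intensity trend or with the libraries of that comparison alone) and fell by 1.89 ± 0.13 from there (adjusted p = 4.9e-06), from a mean of 5080 to 1356 scaled counts. Oat, which degrades ornithine, fell by 0.68 ± 0.030 with β-CYP and fell by 0.54 ± 0.030 from there. The glutamine transporter Slc38a2 fell by 0.49 ± 0.033 and then fell by 0.82 ± 0.033. Car5a, the mitochondrial carbonic anhydrase that supplies bicarbonate to Cps1, also fell with β-CYP, by 0.35 ± 0.059 (limma adjusted p = 0.00269). Unlike Got1, Oat and Slc38a2, it then rose by 0.25 ± 0.059 with selenite plus β-CYP against β-CYP (adjusted p = 0.0124, not passing without the intensity trend). In selenite plus β-CYP against control it did not pass (-0.10 ± 0.059).

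Enzymes that break down amino acids and feed nitrogen to the cycle were also lower. Of 35 tested, 34 fell and 0 rose in selenite plus β-CYP against β-CYP, where 12.3% of all genes fell, and their median was -0.57 beside 0.017 for all genes. With β-CYP alone 8 rose and 13 fell, with a median of -0.06, where 7.72% of all genes rose and 8.58% fell. Tat, the tyrosine aminotransferase, dropped from 58171 ± 195 scaled counts with β-CYP to 22089 ± 279 (-1.40 ± 0.018, limma adjusted p = 5.7e-11). Cbs, which starts transsulfuration, fell by 1.20 ± 0.028 in that comparison. Kynu, of the tryptophan pathway, fell by 1.01 ± 0.029. This list and the ammonia list share Got1 and Gpt. The lists of liver zones below overlap with these too. The periportal list shares Sds, among others, with amino acid breakdown, and the pericentral list shares Glul and Oat, among others, with the ammonia list.

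Carbamoyl phosphate also starts pyrimidine synthesis, by way of the cytosolic enzyme Cad. Cad had 581, 569 and 582 scaled counts in control, 385, 412 and 371 with β-CYP, and 1143, 1128 and 1173 with selenite plus β-CYP. The groups were apart, with β-CYP lowest. Cad fell by 0.57 ± 0.058 with β-CYP (limma adjusted p = 1.0e-04) and rose by 1.56 ± 0.058 from there (adjusted p = 5.0e-08), a ratio of means of 2.95. Uck2, a uridine salvage kinase, rose by 1.33 ± 0.13 and Upp2, a uridine phosphorylase of liver, fell by 2.07 ± 0.033 in the same comparison. Of the 10 pyrimidine genes 2 rose and 3 fell there, where 11.6% of all genes rose and 12.3% fell.

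Arginine and ornithine are also used outside the cycle. Of 25 genes for arginine use, polyamines and nitric oxide, 1 rose and 4 fell with β-CYP, where 16.3% of all genes passed in either direction, and 5 rose and 5 fell in selenite plus β-CYP against β-CYP (median -0.00), where 23.9% did. The first count is near that background. Odc1, the first enzyme of polyamine synthesis, fell by 0.36 ± 0.091 with β-CYP (limma adjusted p = 0.0249, not passing without control replicate 2 or 3, β-CYP replicate 2 or 3, or the intensity trend) and rose by 0.53 ± 0.091 from there (adjusted p = 0.00205). Srm, the spermidine synthase, rose by 0.82 ± 0.091 and Aldh4a1, which turns proline carbon into glutamate, fell by 0.97 ± 0.056 in that second comparison. Among amino acid and urea transporters, 19 of 23 were tested, and 1 rose and 3 fell there, also near the 23.9% of all genes. Slc3a1, the partner of a dibasic amino acid transporter, rose by 0.80 ± 0.027 with β-CYP and fell by 1.03 ± 0.027 with selenite plus β-CYP against β-CYP.

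Regulators known for the urea cycle were measured beside their targets. Of 19, 4 rose and 6 fell with β-CYP, and 2 rose and 8 fell in selenite plus β-CYP against β-CYP (median -0.33). The shares of all genes were 7.72% higher and 8.58% lower in the first comparison and 11.6% higher and 12.3% lower in the second, so the 2 regulators that rose there are near the background. Cebpb, a C/EBP factor, fell by 0.94 ± 0.051 in the latter comparison (limma adjusted p = 8.1e-07) and did not pass with β-CYP (0.06 ± 0.051). Hnf4a, the nuclear receptor of hepatocyte identity, rose by 0.28 ± 0.027 with β-CYP and fell by 0.66 ± 0.027 from there. Klf15, a fasting-responsive regulator of amino acid catabolism, fell by 0.76 ± 0.039 and then fell by 0.92 ± 0.039, and Gcgr, the glucagon receptor, fell by 0.34 ± 0.037 in the second comparison. Cebpa fell by 0.29 ± 0.062 with β-CYP and rose by 0.28 ± 0.062 from there, neither passing without the intensity trend or when the libraries of that comparison alone were fitted. Ppargc1a, a coactivator of mitochondrial genes, fell by 1.05 ± 0.12 with β-CYP.

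Genes of the periportal zone, where the cycle is strongest, and of the pericentral zone both contained more falls than rises when selenite was given with β-CYP. Of 12 periportal genes outside the members, 1 rose and 11 fell against β-CYP (median -0.33). Of 13 pericentral genes 1 rose and 7 fell (median -0.21). Among all genes 11.6% rose and 12.3% fell in that comparison, and the difference between the zones was not tested. Sds, the periportal serine dehydratase, fell by 0.94 ± 0.028 there. With β-CYP against control 4 of the 12 periportal genes rose and 6 fell (median -0.20), where 7.72% of all genes rose and 8.58% fell. Their differences ran from -2.90 to 1.82. The lowest was that of Etnppl, at 4171 ± 188 scaled counts in control, which fell by 2.90 ± 0.083. Of 12 hepatocyte markers 8 rose and 0 fell with β-CYP, where 7.72% of all genes rose and 8.58% fell. In selenite plus β-CYP against β-CYP 2 rose and 8 fell, with a median of -0.18, where 11.6% of all genes rose and 12.3% fell. Alb fell there by 0.38 ± 0.019, which did not pass with quantile normalization. Of 12 macrophage markers 8 rose and 0 fell in that comparison, and their sum went from 0.0504% to 0.0517% of reads to 0.0678% to 0.0682%. In that comparison 11.6% of all genes rose. Of 9 tested neutrophil markers 6 rose with β-CYP, where 7.72% of all genes rose, and the sum of the list was 172 to 208 reads in control, 547 to 636 with β-CYP and 742 to 952 with selenite plus β-CYP. The cholangiocyte markers summed to 0.00772% to 0.00914% of reads in control, 0.0205% to 0.0219% with β-CYP and 0.00781% to 0.00828% with selenite plus β-CYP. Of the 8 markers 2 rose and 0 fell with β-CYP. In selenite plus β-CYP against β-CYP 0 rose and 1 fell, near the 12.3% of all genes that fell. The median there was 0.15 and the lowest value -1.91, so most of the list did not share the fall of the sum. Whether these marker sums reflect cell numbers, and their part in the differences of the urea cycle genes, was not tested.

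**Figure D4:**
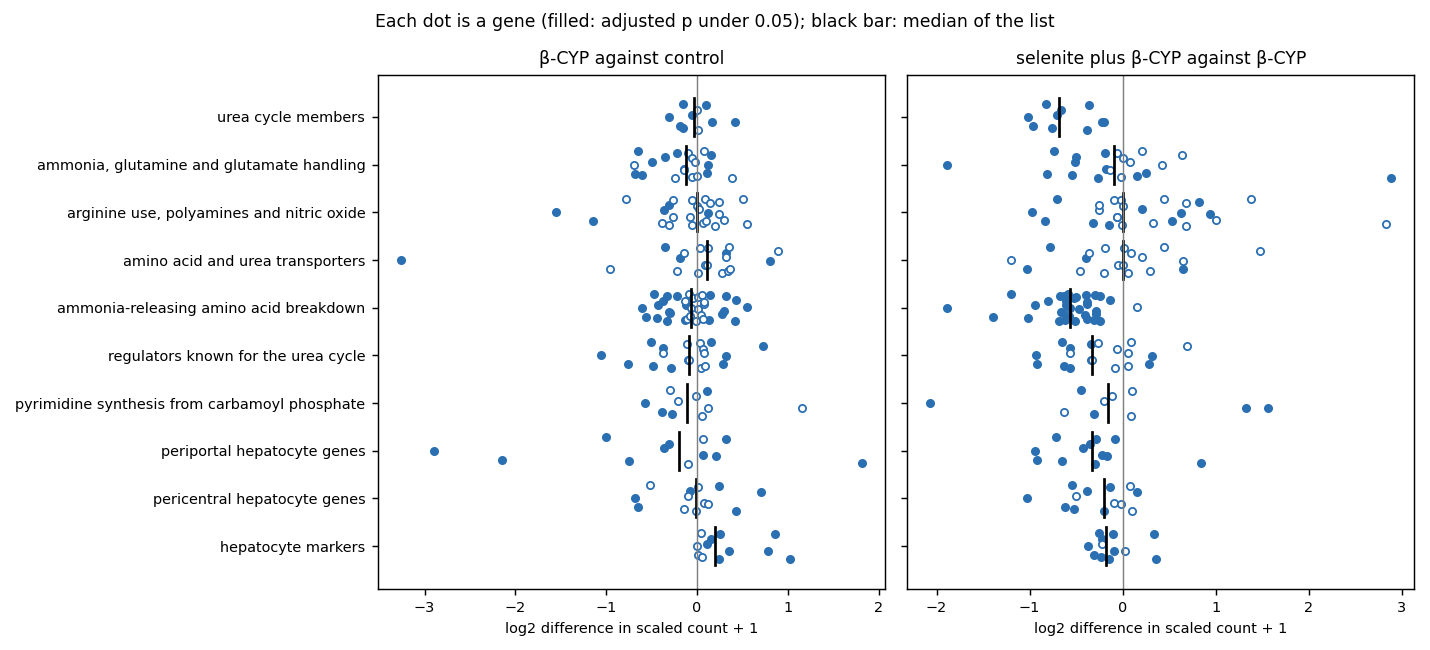
Log2 difference of each tested gene (dots, filled where the test passed) by gene list (vertical axis) for β-CYP against control (left) and selenite plus β-CYP against β-CYP (right), with the median of each list as a black bar. On the right the urea cycle genes have the lowest median of the lists drawn, -0.68, followed by amino acid breakdown at -0.57.

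Cps1 was used to ask which genes shared its pattern. Among 3613 other genes that averaged 1000 scaled counts or more, the closest in root mean square difference of centred log2 values over the 9 libraries were Zadh2 (0.018), Itm2b (0.019), Atp5b (0.020), Lamp2 (0.020) and Lamp1 (0.025). In selenite plus β-CYP against β-CYP these 5 differed by -0.26 to -0.19, beside -0.23 for Cps1. They were picked on these same libraries, so that closeness follows from the choice. The other members lay farther away, from Slc25a13 (0.073) and Otc (0.105) to Asl (0.362) and Gls2 (0.417), so Cps1 and Gls2 shared a direction and not a size.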

How the data were processed

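RNA was measured by sequencing total RNA of 9 mouse liver libraries (Trizol, TruSeq kit, per the labels' protocols). The design text names an Illumina instrument and the library protocol a BGISEQ one. HISAT, Cufflinks and the build mm9 are listed, per the submitters' processing notes. The sources used here name neither the counting step nor its strand setting. The authors deposited log2 values, found to be log2(reads divided by a library factor + 1): undoing this gave whole reads within 0.02 for 100% of values, and the factors equal median-of-ratios factors within 1e-06. Such factors assume that most genes do not change.

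limma 3.58.1 (R 4.3.3) fitted 3 group means over all 9 libraries with an intensity trend, for the 20145 genes that averaged 1 scaled count or more. Tests were two-sided, with the Benjamini-Hochberg method applied across all of these genes and a threshold of 0.05. Promoter letters were searched on both strands. Log2(value + 1) understates the change of low genes. Alternatives were other scalings, pseudocounts of 0.1 and 5, other filters, voom weights, no intensity trend, the libraries of one comparison alone, a replicate block and leaving out each library. The code was tested on simulated data. Coordinates and promoters are RefSeq's on GRCm38.p6, not on mm9. The members and gene lists were chosen with earlier results of these data known. Named genes are the members, a fixed set of related genes and up to 4 of the largest passing differences per list and comparison.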

Additional observations from a re-analysis of the deposited data

How the results depend on the processing

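Of the 210 results of the 10 genes under alternatives per comparison, 175 kept direction and side of the threshold for β-CYP against control, 205 for selenite plus β-CYP against β-CYP and 207 for selenite plus β-CYP against control. For β-CYP against control, 29 lost their call and 6 reversed. The number of members changed there was 8, and it was 2 with equal totals, 5 with quantile normalization, 2 without the intensity trend and 6 to 8 with a library left out. The cause was not tested. Asl, at 0.00 there, was -0.02 with quantile normalization, -0.01 with equal medians and -0.03 to 0.03 with a library left out. Slc7a2 ran from -0.20 to 0.14 with a library left out, and the -0.20, without control replicate 2, passed the threshold (limma adjusted p = 0.0132). In selenite plus β-CYP against control, Car5a was 0.04 with equal totals, and Cebpa was 0.13 with equal totals, 0.25 with quantile normalization and -0.03 to 0.02 with a library left out. With a replicate block 7, 10 and 10 members changed in the 3 comparisons, and 2956, 4481 and 5506 genes did. Deviations of same-numbered libraries correlated at -0.11 to 0.09 in 9 pairs and those of other libraries at -0.12 to 0.18 in 18 pairs. Deviations within groups of 3 libraries constrain each other, so these values cannot decide whether the replicate numbers pair libraries. With a minimum p of 0.10 for the share of reads, 3 libraries per group are the limit, not depth.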
